A study of Homo sapiens with 6 samples.

Results

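The genes described here are 38 human genes of DNA repair, drawn from the Fanconi anaemia pathway, homologous recombination, end joining, mismatch repair, damage tolerance and base excision. They were chosen by name and not by a filter on measured values, but with earlier results of these data known. Each was found among the 16573 genes that have at least 1 exon probeset of their own on the array. The 38 genes carry 780 probesets, and 37 of them have at least 3 probesets and were tested among 15417 genes. XRCC6, which encodes the Ku70 subunit of the Ku heterodimer, has 2 probesets, which changed by 0.06 and 0.07 on the log2 scale, and it was not tested.

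The cells were WI38, a line of normal human diploid lung fibroblasts with a finite life span. They were transfected with phosphorothioate DNA antisense oligonucleotides at 100 nM, 2 times at an interval of 24 h: AS1 and AS2 are independent oligonucleotides against MALAT1, a long noncoding RNA of the nucleus, and Ctr is a control oligonucleotide. Each group has 2 exon arrays (Affymetrix), each made from 100 ng of total RNA. No source says whether the arrays of a group came from separate cultures, so that a p-value takes in the spread among these 6 arrays alone, which may be technical. Both MALAT1 oligonucleotides are shown because every comparison below is between cells that received one of them and cells that received Ctr.
MALAT1-AS1: gggagttacttgccaacttg
MALAT1-AS2: atggaggtatgacatataat
These 20-base DNA sequences, printed 5′ to 3′, target the transcript of MALAT1 on chromosome 11. The level of MALAT1, as the mean of its 11 probesets, was 9.23 and 7.82 with AS1, 8.19 and 8.13 with AS2, and 12 and 11.97 with Ctr. Its log2 change in the mean of both oligonucleotides against Ctr was -3.64 ± 0.29 (12.5-fold lower, adjusted p = 1.85e-05).

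The Fanconi pathway repairs crosslinks between the strands of DNA. A core complex attaches ubiquitin to the FANCD2 and FANCI proteins, which then recruit nucleases, while BRCA1, BRCA2 and PALB2 prepare single-stranded DNA at a broken end so that it can be copied from the sister chromatid. Homologous recombination operates mainly in S and G2 phase, and many of its genes are transcribed mainly in dividing cells, whereas end joining by Ku, XRCC4 and LIG4 operates throughout the cell cycle.

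Values below are log2 array signals, and a change is the difference of log2 means with its standard error from the limma fit. Adjusted p-values are from limma, adjusted over all 15417 genes, and a gene was called at an adjusted p under 0.05. Array medians lay between 7.34 and 7.36. The 10 fibroblast markers averaged 9.97 to 10.4 on the AS1 and AS2 arrays and 10.6 and 10.8 with Ctr, 4 of them being called lower, and COL1A1 and VIM were at percentiles 99.5 and 99.3 of brightness over all genes. The 4 tested leukocyte markers averaged 4.91 to 5.24 over the arrays, and PTPRC among them, at percentile 1.92, reached no more than 3.54 on any array. The 4 tested epithelial markers averaged 5.26 to 5.65, with 1 called higher in the mean of both oligonucleotides. The 6 endothelial markers averaged 6.12 to 6.29, with 1 called higher and 1 lower. All 10 markers of dividing cells (MKI67, TOP2A and others) were called lower in the mean of both oligonucleotides, with a median change of -1.10, and their mean level was 7.97 and 7.60 with AS1, 7.68 and 7.52 with AS2, and 8.74 and 9.02 with Ctr. In these bulk samples fewer dividing cells and less RNA per cell cannot be told apart, and the part of the dividing-cell markers in the changes below was not tested.

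In the mean of both oligonucleotides against Ctr, 14 of the 37 repair genes were lower and 5 were higher, while of all tested genes 10.7% were lower and 14.1% higher (24.8% in either direction). The lower genes were led by HLTF, BLM, EXO1, FANCI and FANCD2, and the higher genes were PMS2, XRCC4, WRN, POLH and SHPRH. The median change of the 37 genes was -0.34, beside -0.04 over all genes. With AS1 alone 14 genes were lower and 4 higher (all genes: 8.17% and 11.8%), and with AS2 alone 15 were lower and 3 higher (all genes: 9.29% and 11.6%, together 20.9%). These comparisons share the Ctr arrays. 13 genes were lower with each oligonucleotide (all genes: 6.34%) and 2 were higher with each (all genes: 8.53%). All 4 oligonucleotide arrays lay below both Ctr arrays for 18 genes (all genes: 20.0%) and above both for 5 (all genes: 21.5%).

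**Figure D1:**
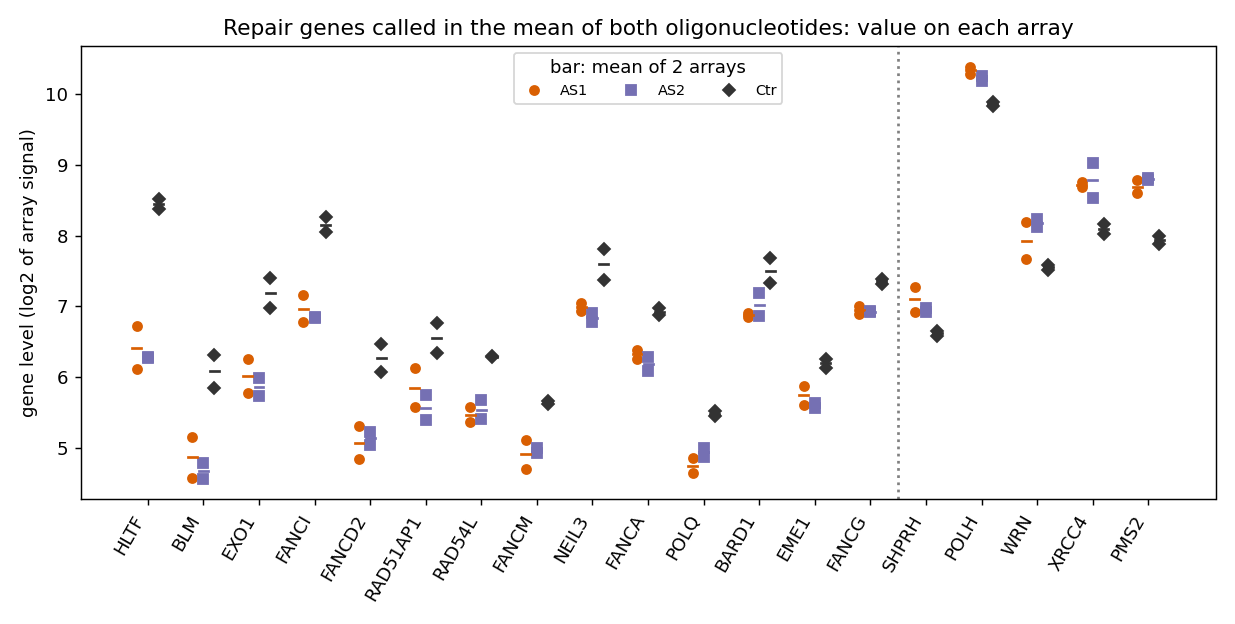
Level of each of the 19 called repair genes on every array, as the log2 of array signal on the vertical axis, with genes along the horizontal axis in order of their change. Circles are AS1, squares AS2 and diamonds Ctr, and each short bar is the mean of 2 arrays. For the 14 genes left of the dotted line every oligonucleotide array lies below both Ctr arrays, and for the 5 genes on its right every one lies above.

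On the Ctr arrays, 20 of the 37 genes lay above the median brightness of all tested genes, and of these 6 were called lower (HLTF, FANCI, NEIL3, BARD1, FANCG and EXO1) and 4 higher, while of the 17 dimmer genes 8 were lower and 1, SHPRH, was higher. Among all tested genes the brighter 7709 on Ctr held 1242 lower and 1308 higher genes, and the dimmer 7708 held 405 and 872. The array files give no measure of background, and the part of low signal in the size of these changes was not tested.

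The Fanconi ID2 pair was lower with both oligonucleotides. FANCI stood at 7.16 and 6.77 with AS1, 6.83 and 6.85 with AS2, and 8.04 and 8.26 with Ctr, so that the groups did not overlap. It changed by -1.25 ± 0.14 (2.38-fold lower, adjusted p = 0.000121), and all 37 of its probesets were lower. FANCD2, its partner in the ubiquitinated clamp, stood at 5.31 and 4.83 with AS1, 5.22 and 5.04 with AS2, and 6.07 and 6.46 with Ctr. The change of FANCD2 was -1.17 ± 0.16 (2.25-fold lower, adjusted p = 0.000496), with 37 of 38 probesets lower, although the gene is dim, at percentile 22.8 of brightness over all arrays. 

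Of the 7 genes of the core complex and its anchor, 3 were lower, 4 were not called and none was higher (all genes: 10.7% lower and 14.1% higher). FANCM, the DNA translocase that anchors the complex on chromatin, stood at 5.11 and 4.70 with AS1, 4.92 and 4.99 with AS2, and 5.66 and 5.61 with Ctr (change -0.71 ± 0.13, adjusted p = 0.00305). FANCA, a scaffold subunit, stood at 6.39 and 6.25, 6.28 and 6.09, and 6.97 and 6.87 in the same order (change -0.67 ± 0.12, adjusted p = 0.00197), with 45 of 47 probesets lower. FANCG, which binds FANCA, stood at 7.0 and 6.89, 6.92 and 6.93, and 7.31 and 7.39 (change -0.42 ± 0.11, adjusted p = 0.017). The groups did not overlap for any of these 3 genes, but the call of FANCG was lost on leaving out either AS2 array or either Ctr array (adjusted p = 0.0531 to 0.118, highest without Ctr replicate 2). FANCC, FANCE and FANCF, the subunits that link the complex to FANCD2, changed by -0.34 ± 0.12, -0.23 ± 0.12 and 0.08 ± 0.16 and were not called, though FANCC was called lower with AS2 alone (-0.47 ± 0.14, adjusted p = 0.0378), a call lost without any 1 array of AS2 or Ctr (adjusted p = 0.0517 to 0.255).

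FANCL, the ubiquitin ligase of the core complex, was the gene on which AS1 and AS2 differed most. It stood at 5.33 and 5.05 with AS1, 4.47 and 4.47 with AS2, and 5.01 and 5.80 with Ctr, so that the AS2 arrays were the lowest and the AS1 arrays overlapped with Ctr. FANCL was called lower with AS2 (-0.93 ± 0.22, adjusted p = 0.0129), while with AS1 its change was -0.21 ± 0.22 (adjusted p = 0.567). These values depended on Ctr: without Ctr replicate 2 the change with AS2 was -0.54 (adjusted p = 0.0596), and without Ctr replicate 1 the change with AS1 was -0.61 and was called (adjusted p = 0.0336). The call with AS2 was also lost without either AS2 array (adjusted p = 0.097 and 0.113). The difference of AS2 from AS1 was -0.72 ± 0.22 (adjusted p = 0.223), and it was called in fits that left out either Ctr array, where the adjusted p was 0.0182. In 3 neighbouring probesets of FANCL, chosen after their values were seen, the mean change was -2.16 with AS2 and -0.22 with AS1. No repair gene was called between AS2 and AS1 in limma (all genes: 1.08%, with 0.506% lower and 0.571% higher), and 1 of 37, FANCL, had an unadjusted p under 0.05. The differences of AS2 from AS1 ranged from -0.72 to 0.34, with standard errors of 0.13 to 0.22, which does not show that the oligonucleotides act alike.

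**Figure D2:**
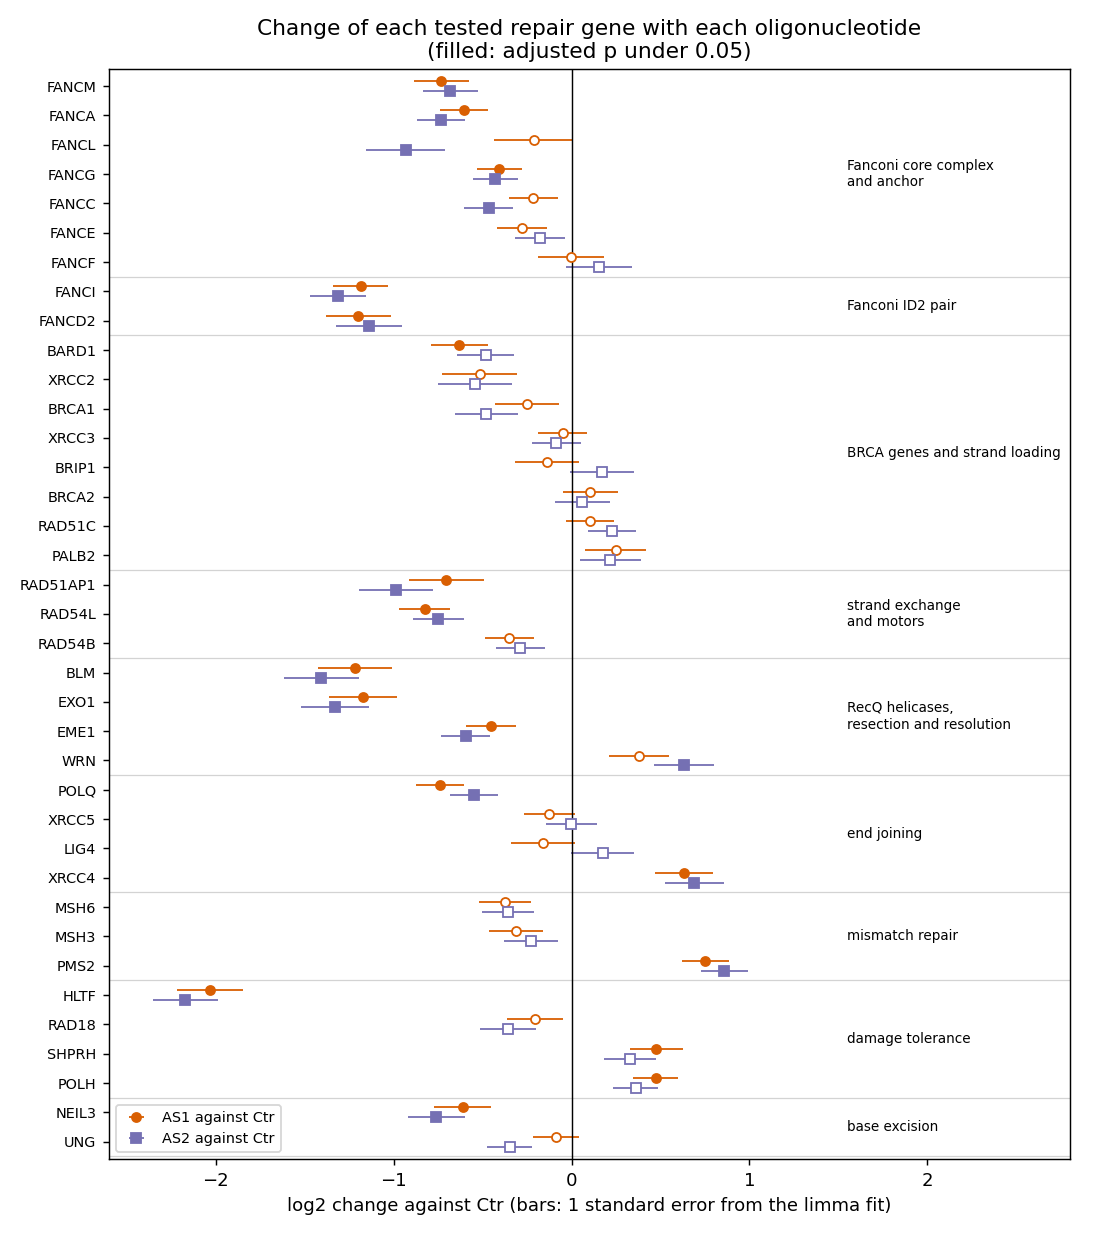
Log2 change of each of the 37 tested repair genes against Ctr (horizontal axis), with AS1 as circles and AS2 as squares, grouped by role. Bars are 1 standard error from the fit and filled symbols have an adjusted p under 0.05; HLTF lies farthest to the left (-2.03 and -2.17) and PMS2 farthest to the right (0.75 and 0.86), and the AS1 and AS2 symbols of FANCL are farthest apart.

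Among BRCA1, BRCA2 and the genes that act with them, 1 of 8 was called (all genes: 24.8%). BARD1, the partner of BRCA1 in a ubiquitin ligase, stood at 6.90 and 6.85 with AS1, 6.86 and 7.19 with AS2, and 7.33 and 7.68 with Ctr (change -0.56 ± 0.14, adjusted p = 0.0142). All 14 of its probesets were lower, but BARD1 was not called with AS2 alone (adjusted p = 0.0581), nor in the mean on leaving out AS2 replicate 1 (0.0584) or Ctr replicate 2 (0.138). BRCA1 itself changed by -0.37 ± 0.15 (adjusted p = 0.119), and BRCA2, a tumour suppressor of homologous recombination, changed by 0.08 ± 0.13. PALB2, which joins BRCA1 to BRCA2, changed by 0.23 ± 0.15, and BRIP1, a helicase that binds BRCA1, changed by 0.02 ± 0.16. Of 3 related genes that act in strand exchange, XRCC2 changed by -0.53 ± 0.18 (adjusted p = 0.0556), XRCC3 by -0.07 ± 0.12 and RAD51C by 0.17 ± 0.12. Without AS1 replicate 1, BRCA1 (-0.49, adjusted p = 0.0147) and XRCC2 (-0.71, adjusted p = 0.000516) were called as well as BARD1. The median of the 8 genes was -0.03. 

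Of 3 genes of strand invasion and exchange, 2 were lower (all genes: 10.7%). RAD51AP1, which stimulates pairing of the invading strand, stood at 6.12 and 5.57 with AS1, 5.74 and 5.38 with AS2, and 6.34 and 6.76 with Ctr (change -0.85 ± 0.18, adjusted p = 0.00634). RAD54L, the motor protein that drives strand exchange, stood at 5.36 and 5.57, 5.67 and 5.40, and 6.30 and 6.28 (change -0.79 ± 0.12, adjusted p = 0.00114). Both were without overlap between the oligonucleotide and Ctr arrays, and all 6 probesets of RAD51AP1 and all 20 of RAD54L were lower. RAD54B, the related motor protein, changed by -0.32 ± 0.12 and was not called (adjusted p = 0.0774).

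BLM and WRN, both RecQ helicases, moved in opposite directions. BLM, which dissolves joined recombination intermediates, stood at 5.14 and 4.57 with AS1, 4.78 and 4.56 with AS2, and 5.84 and 6.31 with Ctr. Its change was -1.31 ± 0.18 (2.48-fold lower, adjusted p = 0.00051), with 26 of 26 probesets lower, at percentile 18.9 of brightness. WRN, mutated in Werner syndrome, stood at 8.19 and 7.67 with AS1, 8.12 and 8.24 with AS2, and 7.52 and 7.58 with Ctr. Its change was 0.51 ± 0.15 (1.42-fold higher, adjusted p = 0.0282), and it was called with AS2 alone (0.63 ± 0.17, adjusted p = 0.0229) and not with AS1 (0.38 ± 0.17, adjusted p = 0.157). The call of WRN was lost on removal of any 1 array of AS2 or Ctr (adjusted p = 0.0588 to 0.108), and with AS1 alone WRN was called without AS1 replicate 2 (0.64, adjusted p = 0.0148).

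The resection and junction genes EXO1 and EME1 were lower as well. EXO1, which resects broken ends and also serves mismatch repair, stood at 6.25 and 5.78 with AS1, 5.98 and 5.73 with AS2, and 6.97 and 7.40 with Ctr (change -1.25 ± 0.17, 2.38-fold lower, adjusted p = 0.000402). EME1, the partner of the MUS81 junction nuclease, stood at 5.88 and 5.60, 5.63 and 5.56, and 6.13 and 6.25 (change -0.52 ± 0.12, adjusted p = 0.00941). All 17 probesets of EXO1 and 10 of 12 of EME1 were lower, and the call of EME1 was lost without Ctr replicate 2 (adjusted p = 0.0666), with the median of its probesets (0.162) and with its brighter probesets only (0.0524).

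Of 4 tested genes of end joining, 1 was higher and 1 lower (all genes: 14.1% and 10.7%). XRCC4, the scaffold of DNA ligase IV, was higher with both oligonucleotides, at 8.75 and 8.69 with AS1, 8.54 and 9.02 with AS2, and 8.16 and 8.02 with Ctr (change 0.66 ± 0.14, 1.58-fold higher, adjusted p = 0.00665). In the mean of both, the call of XRCC4 held whichever array was left out. Its call with AS2 alone was lost without AS2 replicate 2 (change 0.45), and that with AS1 alone without Ctr replicate 2 (change 0.56). POLQ, the polymerase of the alternative route that uses short homologies, was lower with both, at 4.85 and 4.64, 5.0 and 4.87, and 5.45 and 5.51 (change -0.64 ± 0.12, adjusted p = 0.00239), with 45 of 50 probesets lower at percentile 17.1 of brightness. The call of POLQ with AS2 alone was lost without AS2 replicate 1 (change -0.61), AS2 replicate 2 (-0.48) or Ctr replicate 2 (-0.52). LIG4, the ligase itself, changed by 0.01 ± 0.15, and XRCC5, the Ku80 subunit, by -0.06 ± 0.12.

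In mismatch repair the largest change was a rise. PMS2, a nuclease subunit of mismatch repair, stood at 8.78 and 8.60 with AS1, 8.78 and 8.81 with AS2, and 7.88 and 8.0 with Ctr, with no overlap. It changed by 0.80 ± 0.11 (1.75-fold higher, adjusted p = 0.000594), and each of its 8 probesets lay higher on all oligonucleotide arrays than on both Ctr arrays. Near-identical copies of PMS2 exist in the genome, so that signal from the gene and its copies may be mixed. MSH6 and MSH3, alternative subunits of the complexes that recognise mismatches, changed by -0.37 ± 0.13 (adjusted p = 0.0585) and -0.27 ± 0.13 (adjusted p = 0.183), and MSH6 was called lower without AS1 replicate 1 (adjusted p = 0.0193).

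HLTF fell more than any other gene of the set, while its relative SHPRH rose. Both are ubiquitin ligases related to yeast Rad5 that extend ubiquitin chains on PCNA at stalled forks. HLTF stood at 6.72 and 6.11 with AS1, 6.27 and 6.28 with AS2, and 8.37 and 8.52 with Ctr (change -2.10 ± 0.16, 4.29-fold lower, adjusted p = 1.51e-05), and all 27 of its probesets were lower on every oligonucleotide array than on both Ctr arrays. The genes GYG1 and HLTF-AS1 overlap the ends of HLTF in the RefSeq annotation. SHPRH stood at 7.28 and 6.91, 6.91 and 6.98, and 6.58 and 6.65 (change 0.40 ± 0.13, adjusted p = 0.0416), and its call was lost without any 1 of 5 arrays (adjusted p = 0.0926 to 0.181), the exception being AS1 replicate 2. POLH, the translesion polymerase that is mutated in a variant form of xeroderma pigmentosum, stood at 10.39 and 10.28, 10.19 and 10.26, and 9.83 and 9.90 (change 0.42 ± 0.11, adjusted p = 0.0175), with 16 of 17 probesets above both Ctr arrays. On leaving out AS2 replicate 2 or either Ctr array POLH was not called (adjusted p = 0.0613 to 0.121). RAD18, which places the initial ubiquitin on PCNA, changed by -0.28 ± 0.14 (adjusted p = 0.17).

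Both base excision genes of the set are DNA glycosylases. NEIL3, which also unhooks crosslinks, stood at 7.04 and 6.93 with AS1, 6.90 and 6.77 with AS2, and 7.38 and 7.81 with Ctr (change -0.69 ± 0.14, adjusted p = 0.00452), and its call was lost without Ctr replicate 2 (adjusted p = 0.0555). UNG, which removes uracil, changed by -0.22 ± 0.11 (adjusted p = 0.201). On 32 of the 37 genes Ctr replicate 2 was brighter than Ctr replicate 1, by 0.21 on average, and on 33 of 37 AS1 replicate 1 was brighter than AS1 replicate 2.

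Exon arrays also show whether the probesets of a gene moved together. The F test of limma for unequal probeset changes could be run on 24 of the 38 genes and called 12 of them (all genes: 30.4%). For 5 of the 12, BRIP1, NEIL3, WRN, RAD54B and MSH3, the call held whichever array was left out. The runs of neighbouring probesets described below were chosen after their values were seen. Probeset numbers follow the chromosome: among neighbouring genes on the same strand the start rose with the number in 99.3% of pairs on the plus strand and 99.4% on the minus strand. Where the order within a gene is the same, the lowest numbers lie towards the start of a plus-strand gene and towards the end of a minus-strand gene.

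NEIL3, on the plus strand, was lower in 10 of its 14 probesets and higher in a run at high numbers. Its initial 9 probesets changed by -0.59 to -1.88, each with all oligonucleotide arrays below both Ctr arrays, while the next 3 changed by 0.90, 0.90 and 1.23. A lower probeset, also without overlap, lay among those after this run. Probeset 2752752 stood at 9.10 and 9.37 with AS1, 9.02 and 9.19 with AS2, and 7.74 and 8.15 with Ctr, a change relative to the rest of the gene of 2.14 (adjusted p = 1.78e-05). The mean over the gene, -0.69, was thus closer to 0 than the -1.32 of the initial 9 probesets. A noncoding gene, LOC105377558, overlaps NEIL3 in the RefSeq annotation, and which transcript the higher probesets report was not tested.

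BRIP1, with 7.61 and 7.29 with AS1, 7.64 and 7.88 with AS2, and 7.36 and 7.82 with Ctr as the mean of its probesets, held probesets with changes of opposite sign. It lies on the minus strand, and its 3 highest-numbered probesets changed by -0.78, -1.01 and -1.6, all without overlap. They lie towards the start of the gene if the order within it follows the chromosome, which was not checked. Probeset 3765611, in the middle by number, stood at 6.16 and 5.26 with AS1, 5.64 and 6.80 with AS2, and 7.78 and 8.0 with Ctr (relative change -2.07, adjusted p = 1.28e-07). In contrast, the 6 probesets numbered 15 to 20 in order changed by 0.21 to 0.96, of which 3 were without overlap, while numbers 21 and 22 changed by -0.26 and -0.31, and probeset 3765585, the lowest number, changed by 1.19.

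MSH3 stood at 7.38 and 7.18 with AS1, 7.29 and 7.44 with AS2, and 7.42 and 7.76 with Ctr as a mean, with overlap. Its initial 16 probesets were all lower, with changes of -0.26 to -1.01 and with 8 of them without overlap, whereas the next 4 changed by 0.34 to 0.99, with 3 of them without overlap. Of all 27 probesets 20 were lower, so that lower probesets returned after this run. Probeset 2817886 stood at 8.36 and 7.99 with AS1, 7.67 and 8.33 with AS2, and 6.75 and 7.45 with Ctr (relative change 1.34, adjusted p = 0.000139). BRCA2, too dim for the test and looked at after the values were seen, also held runs of opposite sign. Its initial 3 probesets changed by -0.47 to -1.06 and 4 high-numbered probesets by 0.40 to 0.71, all without overlap. Over the whole of BRCA2, 15 of 38 probesets were lower, with 4 below and 8 above both Ctr arrays without overlap.

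**Figure D3:**
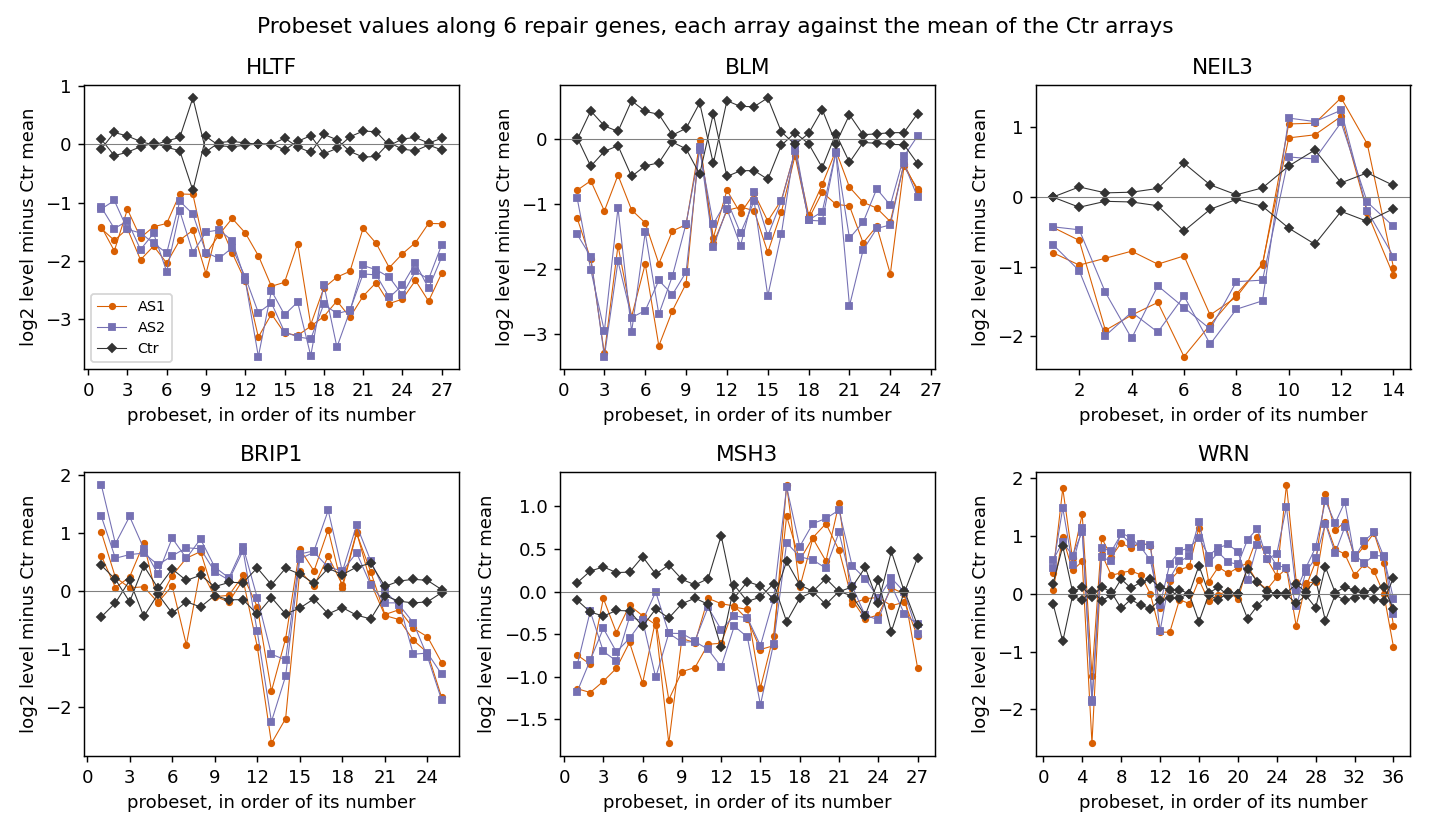
Probeset values along 6 repair genes: the horizontal axis gives probesets in order of their number, and the vertical axis gives the log2 level on each array minus the mean of the Ctr arrays. The numbers follow the chromosome between neighbouring genes, and their order within a gene was not checked. Each line is 1 array, with circles for AS1, squares for AS2 and diamonds for Ctr. HLTF and BLM were lower throughout. NEIL3 and MSH3 were lower at the low numbers and higher in a run further on, with lower values again in part after it. BRIP1 was lower at the high numbers. In WRN, where 4 of 36 probesets were lower, 1 probeset fell furthest.

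In WRN 4 of 36 probesets were lower, against the direction of the gene, and for 2 of these all oligonucleotide arrays lay below both Ctr arrays. Probeset 3092670, the fifth by number, stood at 7.39 and 6.22 with AS1, 6.98 and 6.93 with AS2, and 8.76 and 8.86 with Ctr, a change of -1.93 in a gene of which 32 of 36 probesets were higher (relative change -2.53, adjusted p = 2.43e-11). The mean of RAD54B stood at 6.04 and 5.85 with AS1, 5.95 and 6.06 with AS2, and 6.20 and 6.39 with Ctr. In RAD54B a run of 5 probesets changed by -0.94 to -1.48, all without overlap, of which 3144998 stood at 7.74 and 7.60 with AS1, 7.54 and 7.46 with AS2, and 8.88 and 9.24 with Ctr (relative change -1.12, adjusted p = 0.000321). The gene FSBP overlaps RAD54B in the RefSeq annotation, and which of the genes these 5 probesets report was not tested. HLTF was lower in all probesets but not evenly, with a mean change of -2.84 over the 8 probesets numbered 13 to 20 in order and -1.53 over the initial 11. Its probeset 2700218 stood at 6.13 and 6.10 with AS1, 5.60 and 5.88 with AS2, and 9.07 and 9.36 with Ctr (relative change -1.27, adjusted p = 0.00058), though the F test of HLTF was not called without Ctr replicate 1 (adjusted p = 0.0758) and this probeset not without Ctr replicate 2 (adjusted p = 0.0746).

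The other 6 calls depended on single arrays. XRCC5 as a mean stood at 10.44 and 10.29 with AS1, 10.41 and 10.57 with AS2, and 10.36 and 10.62 with Ctr. Its probeset 2526997 stood at 8.63 and 8.31 with AS1, 7.79 and 8.79 with AS2, and 4.74 and 7.74 with Ctr, so that most of its relative change of 2.30 came from Ctr replicate 1, and without that array it was 0.87 and the F test was not called (adjusted p = 0.212). In UNG, which makes nuclear and mitochondrial proteins from separate starts, the lowest-numbered probeset 3430928 stood at 5.86 and 6.4 with AS1, 5.94 and 5.18 with AS2, and 6.60 and 7.31 with Ctr (relative change -0.95, adjusted p = 0.00269). As a mean UNG stood at 7.63 and 7.64, 7.37 and 7.38, and 7.63 and 7.81, and its F test was lost without Ctr replicate 2, AS1 replicate 1 or AS2 replicate 2 (adjusted p = 0.145 to 0.334). In XRCC4 the lowest-numbered probeset, 2818455, stood at 5.76 and 6.20, 6.75 and 6.46, and 6.52 and 6.64, while 11 of its 12 probesets were higher (relative change -1.04, adjusted p = 0.0037), and the call was lost without AS1 replicate 1 or either Ctr array (adjusted p = 0.0802 to 0.207). The mean of XRCC3 stood at 6.55 and 6.75 with AS1, 6.69 and 6.54 with AS2, and 6.63 and 6.76 with Ctr. XRCC3 probeset 3580850 stood at 5.74 and 5.47, 5.12 and 5.29, and 5.80 and 6.58 (relative change -0.86, adjusted p = 0.0271), and the call of XRCC3 was lost without either AS2 array or Ctr replicate 1 (adjusted p = 0.0613 to 0.161). Without Ctr replicate 2 the relative change of this probeset was -0.48 (adjusted p = 0.422). FANCG and SHPRH were called by the F test but not by any single probeset: 3204479 of FANCG changed by 0.70 relative to its gene (7.15 and 6.78 with AS1, 7.12 and 7.22 with AS2, 6.87 and 6.77 with Ctr; adjusted p = 0.0513), and 2978082 of SHPRH by 0.63 (8.07 and 7.57, 6.92 and 7.91, and 6.08 and 7.16; adjusted p = 0.108). The latter rested on single Ctr arrays, with a relative change of 0.09 without Ctr replicate 1 and 1.17 without Ctr replicate 2. FANCG was called only with all arrays or without AS1 replicate 1, and SHPRH only with all arrays or without AS1 replicate 2 or Ctr replicate 2.

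Promoters were searched for letters known from genes of the cell cycle. RefSeq promoters of 300 bases (250 before and 50 from the start site, GRCh38.p14) were found for 34 of the 38 genes. An E2F motif (TTTCCCGC, TTTGGCGC, TTTCGCGC or TTTGCCGC, on either strand), as bound by the factors that drive entry into S phase, was present for 11 of the 34 genes, 32.4%, beside 3.99% of all 27305 genes in the table. By call, the motif was in 4 of 13 lower genes, 1 of 4 higher genes and 5 of 16 genes not called. The stretches around the motif are shown for these 4 lower genes, for the higher gene PMS2 and for MSH3, where a pair of matches overlaps, with the motif in capitals.
EXO1: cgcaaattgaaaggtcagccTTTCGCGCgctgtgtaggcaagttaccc
FANCD2: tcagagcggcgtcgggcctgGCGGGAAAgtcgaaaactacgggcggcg
HLTF: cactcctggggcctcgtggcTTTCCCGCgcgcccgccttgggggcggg
FANCA: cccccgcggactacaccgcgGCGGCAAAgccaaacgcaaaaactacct
PMS2: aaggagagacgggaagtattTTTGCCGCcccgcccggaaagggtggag
MSH3: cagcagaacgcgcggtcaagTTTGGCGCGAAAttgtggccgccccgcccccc
They lie, on the strand of each gene, at chr1:241848188-241848235 (EXO1, plus), chr3:10026415-10026462 (FANCD2, plus), chr3:149086700-149086747 (HLTF, minus), chr16:89816792-89816839 (FANCA, minus), chr7:6009122-6009169 (PMS2, minus) and chr5:80654525-80654576 (MSH3, plus). A match describes these letters and is not a measured binding site. CCAAT was present for 18 of the 34 genes (52.9%, all genes 39.7%), the ETS motif CCGGAAG for 9 (26.5%, all genes 12.2%) and the CHR letters TTTGAA or TTCGAA for 6 (17.6%, all genes 19.5%).

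Of 92 other repair genes, 83 were tested, and 17 were lower and 15 higher (all genes: 10.7% and 14.1%), with a median change of -0.07. The lists hold 4 to 20 tested genes each and were not tested as sets. In the Fanconi list, FANCB of the core complex (-0.91 ± 0.19) and UBE2T, the ubiquitin-conjugating enzyme that serves FANCL (-0.83 ± 0.14), were lower and FAAP24, the partner of FANCM, was higher (0.62 ± 0.11), of 9 tested. In the recombination list 6 of 20 were lower and 1 higher, with RAD50 (-0.72 ± 0.15) and MRE11 (-0.56 ± 0.13) of the complex that senses broken ends, and the junction nuclease GEN1 (-0.48 ± 0.14). In the end joining list DCLRE1C, the Artemis nuclease, was higher (1.03 ± 0.12), as was the polymerase POLM (0.50 ± 0.11), while the kinase PRKDC was lower (-0.53 ± 0.12), with 2 of 8 in each direction. MLH3, a MutL protein like PMS2, was the 1 of 4 other mismatch repair genes called, and it was higher (1.02 ± 0.11).

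Genes outside recombination were split between the lists, beside 14.1% higher and 10.7% lower over all genes. In damage tolerance 4 of 13 were higher and 2 lower, with REV3L, the catalytic subunit of polymerase zeta (0.88 ± 0.13), and POLK, a translesion polymerase (0.66 ± 0.13), among the higher and UBE2N, which builds ubiquitin chains with HLTF and SHPRH, among the lower (-0.40 ± 0.12). In base excision 4 of 17 were lower and 1 higher, led by PARP1, the sensor of strand breaks (-0.86 ± 0.15), its partner XRCC1 (-0.68 ± 0.14) and LIG3 (-0.66 ± 0.12). In nucleotide excision 5 of 12 were higher and 1 lower: XPA (0.77 ± 0.15) and XPC (0.56 ± 0.11), which bind damaged DNA, rose and the helicase ERCC2 fell by 0.67 ± 0.11. The medians of these lists lay between -0.21 and 0.17.

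**Figure D4:**
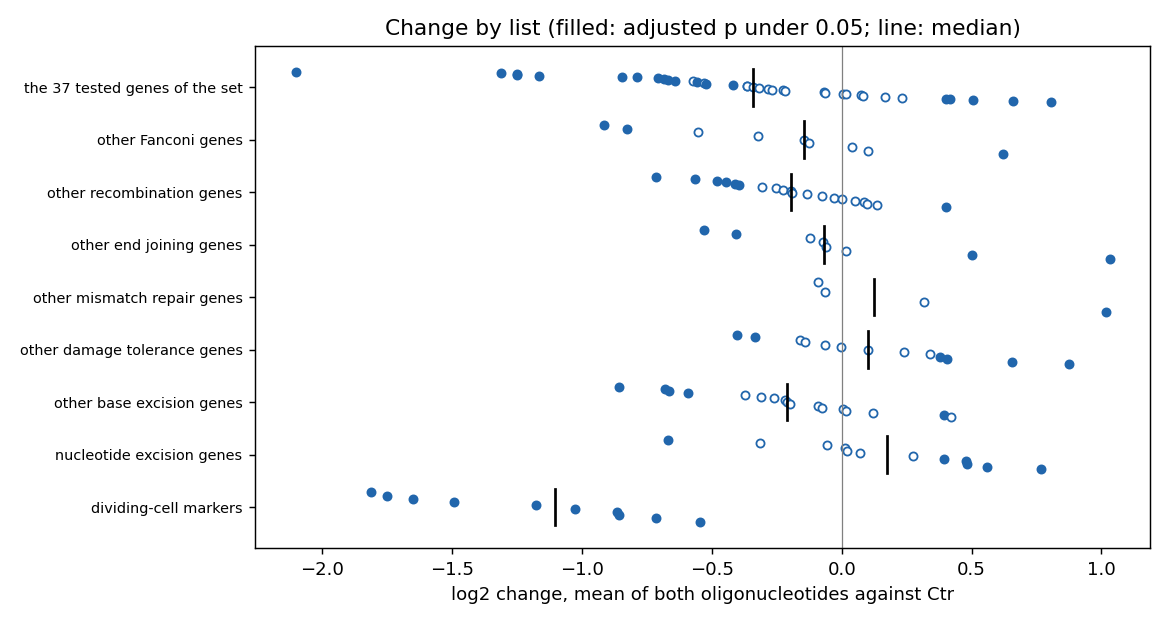
Log2 change in the mean of both oligonucleotides against Ctr (horizontal axis) for the 37 tested genes of the set, 7 lists of other repair genes and the 10 markers of dividing cells. Each point is a gene, filled where the adjusted p is under 0.05, and the line is the median of its list, which is -0.34 for the set and -1.10 for the dividing-cell markers.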

How the data were processed

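Values are log2 exon probeset signals that the authors made with RMA in Partek (no source used here gives versions) and deposited for 6 arrays as 1 table of 232479 probesets, used as it stands. Gene symbols came from GEO's platform table, which can be old: 216780 probesets carry 1 symbol, 2335 several (not used) and 13364 no symbol. The mean of its own probesets, at least 3, was a gene's level. Arrays have no sequencing depth, so their number sets the precision.

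All 6 arrays were fitted together by group in limma 3.58.1 (R 4.3.3), with 3 residual and 7.45 prior degrees of freedom. Contrasts were AS1, AS2 and their mean against Ctr, and AS2 against AS1, with Benjamini-Hochberg adjustment over all genes. Unequal probeset changes were tested with limma diffSplice (F per gene, t per probeset) after leaving out the dimmest 25% of probesets, over the 9431 genes that kept at least 3 probesets with a mean at or above the median of all gene means; removing dim probesets raises a gene's mean. Scripts were tested on simulated data. No source used here gives the platform's genome build, and RefSeq (GRCh38.p14) served for names, order and promoters.

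The genes and lists were chosen with earlier results of these data known. By rule, values per array were given for genes called in the mean with the same sign in both contrasts, for those that differ between AS2 and AS1 and for those with unequal probeset changes (with the probeset of smallest p), and up to 3 called genes of largest change were named per other repair list. FANCL per array, BRCA2 by probeset and runs of probesets were described after their values were seen. Alternatives are given with their effect in the closing section.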

Additional observations from a re-analysis of the deposited data

How the results depend on the processing

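With 2 arrays per group, 1 array can decide a call, and 8 of the 14 lower genes lay below the median brightness on Ctr arrays. In the mean of both oligonucleotides the lower and higher counts, 14 and 5, were 12 to 16 and 4 to 5 with the median of probesets, brighter probesets, at least 1 probeset per gene, renewed quantile normalization, centred arrays, limma's trend and robust options, or only the groups compared. No called gene changed sign in any alternative run.

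With the median of probesets 8 genes were lower and 2 higher with AS1. AS2 and AS1 differed for 1 gene, FANCL, with brighter probesets only and with only the groups compared. An ANOVA without moderation called 2 lower and 1 higher genes in the mean, and 0 lower and 0 higher with AS1 and with AS2 (of all genes, 1032 in the mean in place of 3827; at an unadjusted p under 0.05 limma had 22 and 26 of 37 members with AS1 and AS2). The methods' threshold, over 2-fold with an unadjusted p under 0.001, gave 5 lower and 0 higher genes in each of the mean, AS1 and AS2 (555 of all genes in the mean). With genes at or above the median brightness over all arrays only, 14 of the 37 remained and 1 was lower in the mean, 1 with AS1 and 2 with AS2. The changes themselves enter that brightness, so HLTF, FANCG, BARD1, EXO1, NEIL3 and MSH6 were left out, which are bright on Ctr. With genes bright on Ctr only, added after seeing the data, 20 remained and 7 were lower in the mean, with AS1 and with AS2. The cause of the other shifts was not tested.

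Leaving out each array in turn gave 10 to 18 lower and 2 to 5 higher genes in the mean, 9 to 15 and 1 to 5 with AS1, 5 to 18 and 1 to 3 with AS2, 0 to 1 between AS2 and AS1, and 6 to 11 genes with unequal probeset changes, against 12 with all arrays. Of the 12, the Simes test called 10, leaving out FANCG and SHPRH. Without a brightness filter 18 of 37 genes were called, among them RAD54L and POLQ but not FANCG or SHPRH, and with only the brighter 50% of probesets 12 of 31, where UNG (adjusted p = 0.683), XRCC3 (0.605) and FANCG (0.0568) lost their call and FANCA, BRCA2 and FANCD2 were called. The lowest counts came without Ctr replicate 2 for the lower genes in the mean (10) and with AS1 (9), without AS2 replicate 2 with AS2 (5), and without Ctr replicate 1 for unequal probesets (6). Of the 14 lower genes 10 kept their call whichever array was left out, and of the 5 higher genes 2, XRCC4 and PMS2. A lone array was taken to vary like the other groups.

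Same-numbered arrays did not deviate together throughout (r of deviations -0.34 for AS1 and AS2, -0.51 for AS1 and Ctr, 0.39 for AS2 and Ctr). With 2 arrays per group these values cannot show whether the numbers pair the samples. With the replicate block 14 were lower and 4 higher in the mean, 11 and 2 with AS1, 13 and 3 with AS2, and 9 had unequal probeset changes. Of all genes this block called 3150 in the mean, 2361 with AS1 and 2556 with AS2, in place of 3827, 3082 and 3224. With the AS1 numbers crossed in the block, chosen after seeing the data, 22 were lower and 5 higher in the mean, 17 and 5 with AS1, 22 and 5 with AS2, and 1 differed between AS2 and AS1. The calls rose over all genes too, to 5606 in the mean, 4944 with AS1, 4884 with AS2 and 553 between AS2 and AS1.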
